A study of Gallus gallus with 8 samples.

Results

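Of the 17329 genes in the count table of 8 chick embryo libraries, 95 stood high in the neural plate, low in the ectoderm around it, and under 5 counts per 1000000 (CPM) in area opaca epiblast that had been in contact with a grafted node for 5 hours. Members were chosen by their measured values in 5 of the 8 libraries: the rule took genes at 5 CPM or more in the neural plate library, at 2 times or more the level of each of the 3 other libraries of stage HH6/7 (Hamburger and Hamilton stages, by morphology), and under 5 CPM after node contact. CPM scales a count to the total of its library, and a count of 0 was set to 3 counts. The working name of the group was neural plate genes not yet induced by the node, and it did not hold for all of them. Of the 54 with 1 CPM or more in either area opaca library, 25 were at least 2 times higher after node contact than without it, though below the 5 CPM limit, and 5 were lower. Over the 2403 genes under the same limits 18.1% were higher and 34.1% lower. These calls rest on few counts. The 95 genes are therefore called neural plate genes under 5 CPM after node contact, or members.

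The study asked how the early response to a node resembles other stages of neural and preplacodal induction, and each of its 8 groups is 1 library of chick (Gallus gallus) tissue, with no genetic change or drug named in the labels. The neural plate (NP), the anterior and the posterior preplacodal region (aPPR, pPPR) and non-neural, non-placodal head ectoderm (NNE) were dissected at HH6/7. Area opaca epiblast of HH4 hosts was taken after 5 hours under a graft of Hensen's node (induced), and from the opposite side of the same hosts with no graft (uninduced). Anterior (aPS) and central (cPS) epiblast came from embryos before the primitive streak forms. Per the labels NP, the area opaca and the pre-streak libraries came from 1 laboratory, and aPPR, pPPR and NNE from another, so every ratio that the rule used among the HH6/7 tissues compares laboratories as well as tissues, and the effects cannot be told apart. The count columns of NP, aPS, cPS, aPPR, pPPR and NNE carry a CS code in their names, and those of induced and uninduced do not. What the code stands for, and the number of embryos pooled per library, were not given in the sources used here.

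Hensen's node is the organizer of the avian embryo, and a node grafted under the area opaca, which does not normally form neural tissue, makes that epiblast express neural genes over several hours. The response is stepwise: early genes that the pre-streak epiblast also uses come up within hours, and definitive neural plate genes such as SOX2 come later. The neural plate then acquires forebrain to hindbrain identities under transcription factors of the SOX, ZIC, homeobox and forkhead families, and builds the adhesion, guidance and later the excitability machinery of neurons.

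With 1 library per group there was no replicate check and no test, and p-values were not computed. Ratios carry an exact Clopper-Pearson 95% interval of the counts, which covers counting error only, not the spread between embryos, dissections or laboratories. Library totals ran from 13053810 to 138666339 counts. The grafted and ungrafted area opaca libraries were the smallest, so that 3 counts equal 0.230 CPM in induced and 0.206 CPM in uninduced, and 5 CPM in induced equals 65.3 counts. In bulk tissue, fewer cells of a type and less RNA per cell cannot be told apart. Marker lists matched the tissue labels at HH6/7. A list of SOX and ZIC factors of the neural plate with GMNN, CHURC1 and ERNI (13 genes found) summed to 710 CPM in NP. It summed to 320 in aPPR, 426 in pPPR and 135 in NNE. GMNN, neither a SOX nor a ZIC factor, gave 103 CPM of the sum in NP and 65.4 of that in NNE. Surface ectoderm markers (18 genes) summed to 1299 in NP, against 3338 in aPPR, 3125 in pPPR and 5703 in NNE. The first list holds 3 members, so it is no independent check.

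The neural plate part of the rule was met by 156 of the 9468 genes at 5 CPM or more in NP, or 1.65%. For single contrasts, 2.86% of genes tested reached that ratio over aPPR, 2.14% over pPPR and 9.18% over NNE. Of the 156, 95 were members (60.9%) and 61 stood at 5 CPM or more after node contact. The members' median level was 15.1 CPM in NP (5.02 to 367), 4.02 in aPPR, 4.69 in pPPR and 1.38 in NNE. It was 1.15 CPM in induced (0.0766 to 4.90, with a count of 0 set to 3 counts) and 0.343 in uninduced. In the pre-streak libraries it was 2.25 in aPS and 0.829 in cPS. Thus the pre-streak and area opaca medians lay below the preplacodal medians, and NNE lay between aPS and induced. The other 61 genes had higher medians in every library, 74.1 CPM in NP and 16.9 in induced among them.

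**Figure D1:**
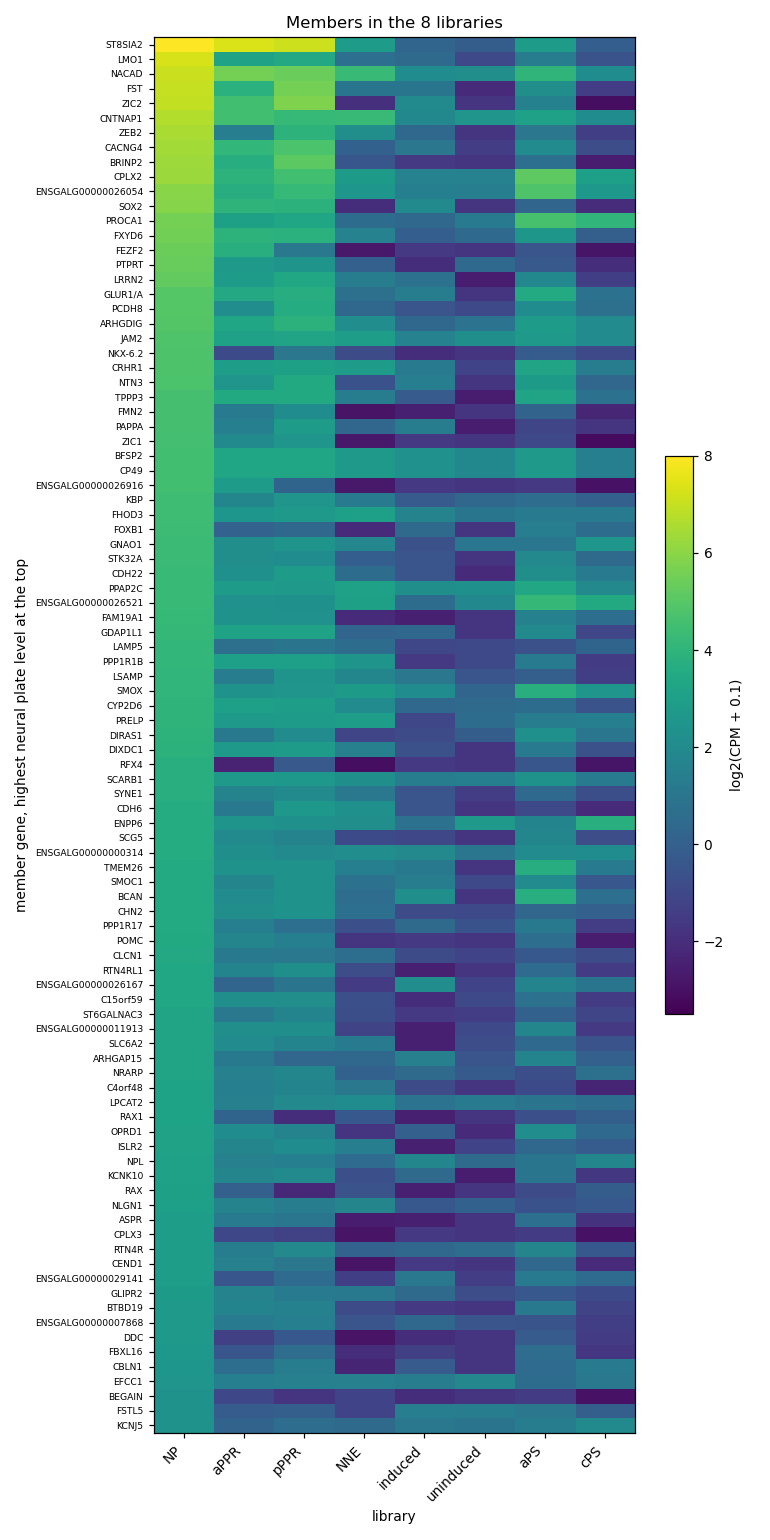
Levels of the 95 members in the 8 libraries, as log2(CPM + 0.1), 1 row per gene with the highest NP level at the top and 1 column per library. The NP column is the brightest in 92 rows, and the induced and uninduced columns are dark throughout, with a highest level of 4.90 CPM in induced and 6.59 in uninduced.

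The map of levels shows NP as the brightest column, which the rule fixed against 4 of the 7 other libraries. Over all 8 libraries NP was highest for 92 members. The exceptions were BCAN and TMEM26, highest in aPS, and ENPP6, highest in cPS. The next library after NP or above it was a preplacodal one for most: pPPR held the runner-up place for 40 members, aPPR for 28, aPS for 16, cPS and NNE for 4 each, induced for 2 and uninduced for 1. As a description of levels the rule used, NNE was the lowest of the 4 HH6/7 libraries for 76 members (80%), against 78.7% of the 61 other neural plate genes and 46.5% of all genes at 5 CPM or more in NP. Both preplacodal libraries stood at 2 times NNE or more, with 1 CPM or more, for 49 members (51.6%), against 45.9% and 6.25% of the same genes.

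Members lay at all distances from the limits. Just inside the 5 CPM minimum in NP were KCNJ5 and FSTL5 at 5.02 CPM and BEGAIN at 5.22, and just outside were ZEB1 at 4.98, TSC22D3 at 4.74 and TCTN3 at 4.71. Just inside the ratio of 2 were RTN4R at 2.01 and CYP2D6 and a gene with an Ensembl number only at 2.03, and just outside were NTM at 1.99, another gene with a number only at 1.99 and GDPD4 at 1.96. Just under 5 CPM in induced were CP49, also listed as BFSP2, at 4.90 and PPAP2C at 4.60, and just above were MAMLD1 at 5.06, ASTN1 at 6.28 and ST6GALNAC2 at 6.43.

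The counts of 3 pairs of members kept a nearly constant ratio across libraries. Counts of CP49 and BFSP2 differed by a factor of at most 1.0022 in all 8 libraries, RAX had 0.870 times the counts of RAX1, at the median over 5 libraries with enough counts, and CPLX2 had 1.22 times the counts of a gene with an Ensembl number only (1.09 to 1.28 over 8 libraries). Whether the rows of a pair share reads was not tested. With each pair counted once there are 92 members. Of the 95, 84 carry a gene symbol, where Ensembl numbers and the provisional names FAM19A1, C15orf59 and C4orf48 are not counted as symbols.

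Transcriptional regulators made up 11 entries: SOX2, ZIC1, ZIC2, ZEB2, LMO1, FEZF2, FOXB1, RFX4, NKX-6.2, RAX and RAX1. They stood furthest above the surrounding ectoderm at the median. The median ratio of NP over the highest of aPPR, pPPR and NNE was 8.48 for them, and the medians of the other role groups lay between 2.33 and 3.18. The 8.48 is the ratio of RAX1, and RAX, whose counts followed it, was counted as well. Single regulators ran from 2.28 for ZIC2 to 18.6 for RFX4. The roles were given to the genes after the members were known, so these medians are a description.

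SOX2, the SoxB1 factor that marks the definitive neural plate, had 60.0 CPM in NP, against 15.5 in aPPR, 14.9 in pPPR and 0.153 in NNE. In area opaca it had 51 counts (3.91 CPM) in induced and 0 counts in uninduced, and in pre-streak epiblast 1.09 CPM in aPS and 0.140 in cPS. It was thus present at a low level after node contact, at 6.51% of its NP level. ZIC2, a zinc finger factor of the neural plate and its dorsal edge, had 124 CPM in NP, against 22.6 in aPPR, 54.3 in pPPR and 0.170 in NNE, with 51 counts in induced and 0 in uninduced, and 2.83 CPM in aPS and 0.0200 in cPS. ZIC1, its relative, had 23.9 CPM in NP, 3.88 in aPPR and 5.50 in pPPR, 0 counts in NNE, induced and uninduced alike, and 41 counts in aPS and 1 in cPS. The ZIC members therefore shared their order among the HH6/7 tissues and differed in the grafted area opaca.

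LMO1, a LIM-only cofactor of transcriptional complexes, had 156 CPM in NP, against 8.70 in aPPR, 10.9 in pPPR and 1.52 in NNE, which put NP at 14.3 times pPPR. It had 1.30 CPM in induced, 0.412 in uninduced, 2.48 in aPS and 0.589 in cPS. No other library came near its NP level. ZEB2, a zinc finger homeobox repressor known in chick as a late step of neural induction (SIP1), had 93.7 CPM in NP, against 2.61 in aPPR, 15.3 in pPPR and 4.39 in NNE, with 15 counts in induced and 3 in uninduced, and 1.98 CPM in aPS and 0.290 in cPS. FEZF2, a zinc finger factor of the anterior forebrain, had 42.1 CPM in NP, against 13.4 in aPPR, 2.05 in pPPR and 0 counts in NNE, 0 counts in both area opaca libraries, and 63 counts in aPS and 4 in cPS. Among these, FEZF2 had its next level in the anterior and ZEB2 in the posterior preplacodal library.

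RFX4, FOXB1, NKX-6.2 and RAX were under 3 CPM in every library other than NP. RFX4, a winged-helix factor of neural tube patterning in mouse, had 13.5 CPM in NP, against 0.0935 in aPPR, 0.728 in pPPR and 1 count in NNE, 0 counts in both area opaca libraries, and 0.642 CPM in aPS and 0.0399 in cPS. NP was 18.6 times pPPR (15.2 to 22.9). FOXB1, a forkhead factor of the early neural plate, had 21.1 CPM in NP, against 0.987 in aPPR, 1.19 in pPPR and 0.136 in NNE, with NP 17.7 times pPPR (15.1 to 20.8). Its level was 1.30 CPM in induced (17 counts), 0 counts in uninduced, 2.55 CPM in aPS and 1.39 in cPS. NKX-6.2, a homeobox factor of ventral neural progenitors, had 27.7 CPM in NP, against 0.426 in aPPR, 1.98 in pPPR and 0.460 in NNE, with 2 counts in induced and 0 in uninduced, and 0.802 CPM in aPS and 0.409 in cPS. RAX, the homeobox factor of the eye field, had 8.01 CPM in NP, against 0.904 in aPPR, 0.123 in pPPR and 0.579 in NNE, and RAX1, whose counts followed it, gave 8.81, 1.04, 0.151 and 0.698 CPM in the same order.

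**Figure D2:**
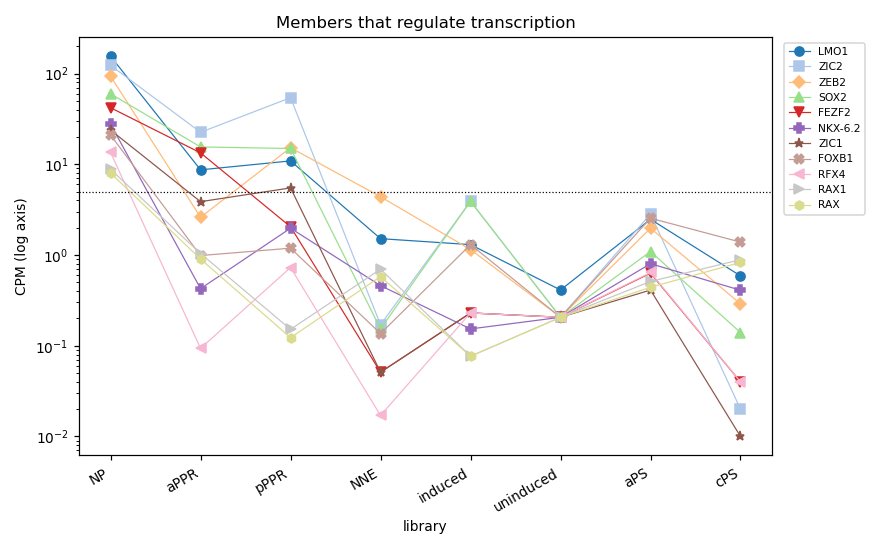
CPM (log axis) of the 11 members that regulate transcription, 1 line per gene over the 8 libraries; the dotted line marks 5 CPM and a count of 0 is drawn at 3 counts. Every line peaks in NP (8.01 to 156 CPM), and SOX2 and ZIC2 reach the highest points in induced, at 3.91 CPM each.

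The plot of transcriptional regulators sets these profiles side by side. All 11 stood at 2 times or more in NP over each of the 4 other libraries of the same laboratory (induced, uninduced, aPS and cPS), as did 85 of all 95 members, with the level in induced limited by the rule.

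Signalling genes gave 11 members. FST, which encodes follistatin, a secreted inhibitor of activins and some BMPs, had 129 CPM in NP, against 14.1 in aPPR, 48.9 in pPPR and 1.87 in NNE. It had 1.84 CPM in induced (24 counts), 0.137 in uninduced (2 counts), 4.39 in aPS and 0.280 in cPS. CRHR1, a receptor of corticotropin-releasing hormone, had 27.2 CPM in NP, against 7.56 in aPPR, 7.98 in pPPR and 7.08 in NNE, so the 3 other HH6/7 tissues were close to each other. BRINP2, of a family induced by BMP and retinoic acid in neurons, had 78.3 CPM in NP, against 12.6 in aPPR, 34.3 in pPPR and 0.647 in NNE. Its 3 counts in induced and 0 in uninduced leave it among the members lowest after node contact, at 0.293% of its NP level. NTN3, which encodes a netrin, a guidance cue, had 26.7 CPM in NP, against 5.59 in aPPR, 11.1 in pPPR and 0.562 in NNE. NRARP, a feedback inhibitor of Notch signalling, had 9.20 CPM in NP, against 2.71 in aPPR, 3.34 in pPPR and 0.936 in NNE. The rest were PAPPA, a protease that frees insulin-like growth factors, SMOC1, a matrix protein that modulates BMP signalling, DIXDC1, a Wnt pathway protein, POMC, the precursor of melanocortins, and FAM19A1 and CBLN1, secreted neural proteins. Those 6 ran from 5.68 to 24.0 CPM in NP, and all of them were under 8 CPM in aPPR, pPPR and NNE.

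Adhesion and guidance genes gave 14 members. ST8SIA2, the enzyme that adds polysialic acid to NCAM, had 367 CPM in NP, against 163 in aPPR, 140 in pPPR and 7.00 in NNE. It had 1.07 CPM in induced (14 counts), 0.823 in uninduced (12 counts), 7.03 in aPS and 0.859 in cPS. It was thus high in 3 of the 4 tissues at HH6/7 and low in area opaca with or without the node. Induced stood at 0.292% of NP, the lowest share among members with reads in induced. The 8 members with 0 counts there have no measured share. CNTNAP1, an axonal contactin partner, had 103 CPM in NP, against 22.9 in aPPR, 18.1 in pPPR and 18.9 in NNE, with 3.60 in induced and 5.56 in uninduced. PTPRT, a receptor phosphatase that mediates cell adhesion, had 40.3 CPM in NP, against 6.34 in aPPR, 5.40 in pPPR and 0.919 in NNE. PCDH8, a protocadherin also used as a marker of paraxial mesoderm, had 31.1 CPM in NP, against 4.33 in aPPR, 12.1 in pPPR and 1.23 in NNE.

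PCDH8 was the main source of the paraxial mesoderm list in NP. The 14 markers found summed to 36.1 CPM in NP, against 19.7 in aPPR, 23.6 in pPPR and 6.95 in NNE; 11 of the 14 were under 1 CPM in NP, and MSGN1 and UNCX were at 0 counts there. FOXC1 is listed at 0 counts in all 8 libraries, as are 260 of the 628 genes listed by RefSeq accession, so its 0 does not show whether the gene was expressed. CDH6, a cadherin of the neural folds and early neural crest, had 12.4 CPM in NP, against 2.10 in aPPR, 6.05 in pPPR and 4.77 in NNE, and was the 1 member among 12 neural crest markers found. BCAN, which encodes the matrix proteoglycan brevican, differed from the rest: it had 11.4 CPM in NP, against 4.02 in aPPR, 5.11 in pPPR, 1.41 in NNE, 4.52 in induced, 0 counts in uninduced, 12.9 CPM in aPS and 1.54 in cPS. The remaining adhesion members were LRRN2, LSAMP, JAM2, CDH22, NLGN1, ISLR2, RTN4R and RTN4RL1, at 7.43 to 38.2 CPM in NP; RTN4R and RTN4RL1 are receptors for myelin-derived inhibitors of axon growth, NLGN1 is a synaptic adhesion protein, JAM2 a junctional adhesion molecule, CDH22 a cadherin and LSAMP a membrane-anchored adhesion protein of neurons.

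Genes of excitability and transmitter release gave 15 members. CACNG4, an auxiliary subunit of AMPA receptors and calcium channels, had 84.1 CPM in NP, against 17.4 in aPPR, 26.5 in pPPR and 0.936 in NNE, while the authors' FPKM lists CACNG4 at 0.575 in NP and at 0 in induced and uninduced. CPLX2, a complexin that regulates vesicle fusion, had 76.2 CPM in NP, against 15.2 in aPPR, 22.6 in pPPR and 6.66 in NNE, and 34.8 in aPS against 7.76 in cPS. CPLX3, its relative, had 7.60 CPM in NP, against 0.395 in aPPR, 0.310 in pPPR and 0.0341 in NNE. NP was 19.3 times aPPR, the next HH6/7 library, for CPLX3 (13.9 to 27.4). CPLX2 was shared more widely, with NP at 3.37 times pPPR, its next HH6/7 library (3.23 to 3.51). GLUR1/A, an AMPA receptor subunit, had 31.2 CPM in NP, against 10.8 in aPPR, 12.7 in pPPR and 1.60 in NNE. BEGAIN, a postsynaptic scaffold-associated protein, had 5.22 CPM in NP, against 0.405 in aPPR, 0.202 in pPPR and 0.341 in NNE, 12.9 times (9.32 to 18.3). DDC, the enzyme that makes dopamine and serotonin from their precursors, had 6.25 CPM in NP, against 0.301 in aPPR, 0.692 in pPPR and 0.0341 in NNE. Thus the synaptic genes split between a few seen mainly in NP and others that the preplacodal libraries shared. FXYD6, a modulator of the sodium pump, and GNAO1, the alpha subunit of the G protein Go, were also members, with FXYD6 at 46.9 CPM in NP. The rest were PPP1R1B, a phosphatase inhibitor of dopamine signalling, SCG5, a chaperone of neuroendocrine granules, CLCN1, a chloride channel, SLC6A2, the noradrenaline transporter, OPRD1, an opioid receptor, and the potassium channels KCNK10 and KCNJ5. Those 7 ran from 5.02 to 17.0 CPM in NP.

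The cytoskeletal group (9 entries) held TPPP3, a tubulin-binding protein, at 24.2 CPM in NP, against 10.9 in aPPR, 11.0 in pPPR and 2.49 in NNE, and FMN2, an actin nucleator, at 24.1 CPM in NP, against 2.31 in aPPR, 4.20 in pPPR and 2 counts in NNE. The others were ARHGDIG, CHN2 and ARHGAP15, regulators of small GTPases, FHOD3, a formin, SYNE1, a nuclear envelope spectrin-repeat protein, and the CP49 and BFSP2 pair, a lens filament protein. Enzymes and transporters of metabolism gave 8: the lipid enzymes PPAP2C, LPCAT2 and ENPP6, the spermine oxidase SMOX, the cytochrome CYP2D6, the lipoprotein receptor SCARB1, the sialyltransferase ST6GALNAC3 and NPL, which cleaves sialic acid. Their ratios of NP over the next HH6/7 library were the lowest of the role groups at the median, 2.33, and 5 of the 8 stood at 2 times or more in NP over each other library of the same laboratory. A further 27 members were given no role; among them NACAD, a paralog of a nascent-chain binding protein, had 137 CPM in NP, LAMP5, a lysosome-associated membrane protein of neurons, 17.1, PROCA1, a cyclin-A1-interacting protein in human, 48.8, and TMEM26, a transmembrane protein, 11.6.

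Levels of different genes can be set side by side only per length, for which the authors' FPKM (fragments per kilobase of transcript, scaled to library size) of the 92 members with Ensembl numbers served. Their NP median was 7.99 FPKM (0.0565 to 292). The highest were ZIC2 at 292 FPKM, ST8SIA2 at 276, LMO1 at 145, SOX2 at 106 and PROCA1 at 97.2 FPKM. CACNG4 had 84.1 CPM and 0.575 FPKM in NP, and 0 FPKM in NNE and induced, where it had 55 and 26 counts. A gene with an Ensembl number only had 7.26 CPM and 0.0565 FPKM in NP, and 226 counts but 0 FPKM in aPS. Scaling by length does not turn such counts into 0, so the count and FPKM values disagree on these genes. The reason was not tested, and their place among members is not known. In FPKM, 89 of the 92 kept NP at 2 times or more over each other HH6/7 library.

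Beyond SOX2, ZIC1 and ZIC2, lists of neural genes held 0 to 2 members each, where members make up 0.548% of all 17329 genes and 1.0% of those at 5 CPM or more in NP. The forebrain and eye list gave RAX and FEZF2 of 23 genes found, the list of dorsoventral patterning NKX-6.2 of 23, the proneural and Notch list NRARP of 25, and the list of neural adhesion genes PCDH8 of 27. From the lists of midbrain and hindbrain (27 genes found) and of caudal and spinal cord regulators (21) there was no member and no gene that met the neural plate part of the rule. Only 11 of the 27 and 1 of the 21 stood at 5 CPM or more in NP, so few could have met it. Over all lists, 10 of the genes found, all listed by RefSeq accession, were at 0 counts in all 8 libraries and could not be members. Other genes of these lists that met that part were above 5 CPM after node contact: GLI3, a mediator of hedgehog signalling, CDH2, the neural cadherin, CNTN2, an axonal contactin, and NRP2, a semaphorin receptor, at 26.6, 20.5, 160 and 14.4 CPM in induced. Lists of surface ectoderm, preplacodal ectoderm, notochord and node, lateral mesoderm, endoderm and blood markers held no member.

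Within the laboratory that made the NP library, 85 of the 95 members (89.5%) stood at 2 times or more in NP over each of induced, uninduced, aPS and cPS. The share was 6.24% over all 9468 genes at 5 CPM or more in NP and 37.3% over the 898 of these that were under 5 CPM in induced. The NP level chose the members, so a high share is partly built in. NP was called higher than aPS for 89 members and lower for 0, against 14.8% and 4.75% of genes tested, and higher than cPS for 92 and lower for 0, against 18.2% and 7.03%; a call needs a ratio of 2 and 5 CPM in the higher library. It was higher than uninduced for 93, against 20.2%, and, as the limits of the rule favour, higher than induced for 94, against 16.1%. The 10 members short of the mark were PROCA1, PPAP2C, SMOX, ENPP6, TMEM26, BCAN, EFCC1, FSTL5, KCNJ5 and 1 gene with an Ensembl number only. For FSTL5 and KCNJ5 all 5 libraries of that laboratory lay above all 3 of the other: FSTL5 had 5.02 CPM in NP, 2.60 in induced, 2.40 in uninduced, 1.96 in aPS and 0.889 in cPS, against 0.790 in aPPR, 0.880 in pPPR and 0.341 in NNE. The part of the laboratory in these levels was not tested.

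Against anterior pre-streak epiblast the ratios of the regulators were wide. NP was 54.9 times aPS for SOX2 (45.4 to 66.9), 43.7 times for ZIC2 (38.8 to 49.3) and 62.8 times for LMO1 (55.4 to 71.5). In the other direction, BCAN had 11.4 CPM in NP and 12.9 in aPS, a ratio of 0.886, and TMEM26 11.6 CPM in NP and 12.5 in aPS. Over both pre-streak libraries, NP reached 2 times for 87 members, against 12.1% of genes at 5 CPM or more in NP.

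The comparison of induced with uninduced was limited by the rule, since a gene under 5 CPM in induced cannot be called higher there at a 5 CPM minimum. At that minimum 2 members could be called, through their level in uninduced: ENPP6, a choline phosphodiesterase, was lower in induced, and CNTNAP1 did not reach a ratio of 2. Of all genes tested, 7.56% were higher in induced and 8.57% lower. With the minimum at 1 CPM in either library, 54 members could be called, of which 25 were higher in induced, 5 were lower and 24 neither. Over the 2403 genes under the same 5 CPM limit, 18.1% were higher and 34.1% lower. The median log2 ratio of induced over uninduced was 0.84 for the 54 members and -0.39 for the 2403 genes.

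BCAN had 59 counts in induced and 0 in uninduced, at least 22.0-fold higher. SOX2 and ZIC2 each had 51 counts in induced and 0 in uninduced, at least 19.0-fold higher. These lower bounds set the 0 to 3 counts in that library. NTN3 had 34 counts in induced against 0, GLUR1/A 33 against 0, TMEM26 28 against 0, FOXB1 17 against 0, and GDAP1L1 15 against 0, at least 12.7-, 12.3-, 10.4-, 6.33- and 5.58-fold higher. These 8 members had reads after node contact and none without it, and they were not the only ones. In uninduced 25 members had 0 counts, and 6 of the 25 had 0 counts in induced too. Apart from the 8, all of the 25 were under 1 CPM in induced. The members that follow had reads in both libraries. FST had 24 counts in induced and 2 in uninduced, a ratio of 13.4 (3.33 to 117), and PAPPA had 33 in induced and 1 in uninduced. CRHR1 had 30 counts in induced and 5 in uninduced, a ratio of 6.70 (2.57 to 22.1). For SMOC1 the counts were 32 in induced and 6 in uninduced, a ratio of 5.95 (2.46 to 17.4), and for ZEB2 15 in induced and 3 in uninduced, a ratio of 5.58 (1.58 to 30.1). The intervals of these ratios were wide, since the counts in uninduced were few. SMOX, which oxidizes spermine, had more reads, 54 in induced and 16 in uninduced, a ratio of 3.77 (2.12 to 7.05).

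By role, all 5 transcriptional regulators with 1 CPM or more in either area opaca library were higher in induced (SOX2, ZIC2, FOXB1, ZEB2 and LMO1), as were 5 of 6 signalling genes, against 3 of 8 adhesion genes, 3 of 7 excitability genes, 1 of 5 cytoskeletal genes and 2 of 7 metabolic genes. The other 6 regulators had 0 to 2 counts in induced: RFX4, FEZF2 and ZIC1 had 0 counts in both area opaca libraries, as had POMC, BTBD19 and 1 gene with an Ensembl number only. A count of 0 there allows up to 0.230 CPM in induced. LMO1 had 17 counts in induced and 6 in uninduced, a ratio of 3.16 (1.19 to 9.80), and PPP1R17, an inhibitor of protein phosphatases, had 17 and 8, a ratio of 2.37 whose interval held 1 (0.970 to 6.35). Among the 54 members with 1 CPM or more in either library, the interval lay above 1 for 46.3% and below 1 for 14.8%, against 19.4% and 40.0% of all genes under the same limits.

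Lower after node contact were ENPP6, with 1.61 CPM in induced and 6.59 in uninduced, 4.09-fold lower (2.53 to 6.92), PTPRT, with 2 counts in induced and 18 in uninduced, GNAO1, with 7 and 28, 3.58-fold lower (1.53 to 9.72), PRELP, a matrix leucine-rich repeat protein, with 5 and 20, and a gene with an Ensembl number only. ST8SIA2, NACAD and CPLX2 were neither: CPLX2 had 38 counts in induced and 43 in uninduced, a ratio of 0.987 (0.621 to 1.56). As shares of the NP level, with a count of 0 set to 3 counts, induced ran from 0.292% to 51.8%, with a median of 4.05%. It was under 10% for 65 members and under 2% for 24.

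**Figure D3:**
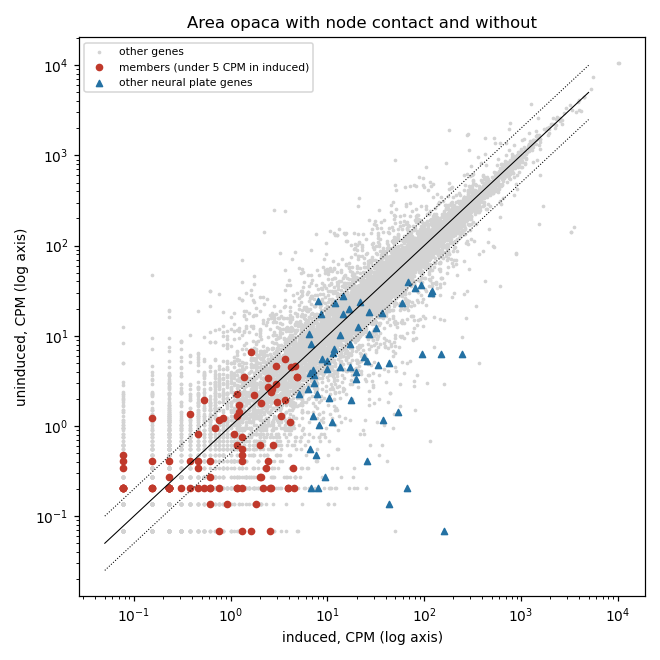
CPM in induced (x, log axis) and in uninduced (y, log axis) for the 95 members (red), the 61 other neural plate genes (blue triangles) and all other genes (grey); a count of 0 is drawn at 3 counts, above 1 or 2 counts, the solid line marks equal levels and the dotted lines a ratio of 2. Members stop at 5 CPM on the x axis by the rule, and 25 of the 54 with 1 CPM or more in either library lie at or beyond the lower dotted line.

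The plot of both area opaca libraries shows the limit of the rule as a vertical edge. Markers of the graft's own tissue were higher after node contact too. The 14 markers of notochord, prechordal plate and node that were found summed to 198 CPM in induced and 29.6 in uninduced, 108 of the 198 being OTX2, which neural tissue also expresses. Of its defining genes, T had 24.8 CPM in induced and 0.206 in uninduced, the level of 3 counts or fewer, and GNOT1 26.2 and 4.80, whereas SHH was at that 3-count level in both. The paraxial mesoderm list summed to 13.5 CPM in induced, 11.9 of it TBX6, and 0.618 in uninduced. The part of graft or mesoderm cells in the members' levels was not tested.

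The pre-streak libraries were not used by the rule. Of the 23 members with 5 CPM or more in either, 16 were higher in aPS than in cPS, 2 lower and 5 neither. With each pair of members of nearly constant count ratio counted once, 14 were higher and 2 lower. Over all genes tested 6.09% were higher and 4.71% lower. The median log2 ratio of the 23 was 1.52. With the minimum at 1 CPM, 50 of 75 were higher and 3 lower, against 8.61% and 5.95% of all genes, and aPS was above cPS for 82 of the 95 members at any level. Of the 61 other neural plate genes, 57 could be tested, of which 31 were higher in aPS and 2 lower.

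BCAN had 12.9 CPM in aPS and 1.54 in cPS, a ratio of 8.39 (7.10 to 9.99). ST8SIA2 had 7.03 CPM in aPS and 0.859 in cPS, a ratio of 8.19 (6.54 to 10.4). CPLX2 had 34.8 CPM in aPS and 7.76 in cPS, a ratio of 4.49 (4.15 to 4.85). Each was several times higher at the anterior end, and GLUR1/A, FXYD6, NTN3, TMEM26, TPPP3, NACAD and CRHR1 were as well, at ratios from 3.73 to 6.71. Below 5 CPM other members showed the same order: ZIC2 had 282 counts in aPS and 2 in cPS, FST 438 and 28, a ratio of 15.7 (10.7 to 23.9), SOX2 109 and 14, a ratio of 7.82 (4.47 to 14.8), and ZEB2 197 and 29, a ratio of 6.82. Members with the opposite order included RAX, with 0.441 CPM in aPS and 0.829 in cPS, and LAMP5, with 0.531 and 1.05, both short of a ratio of 2. NRARP went past that ratio, with 50 counts (0.501 CPM) in aPS and 160 (1.60 CPM) in cPS, a log2 ratio of -1.67. ENPP6 had 3.11 CPM in aPS and 13.2 in cPS, 4.24-fold lower (3.74 to 4.81), and GNAO1 1.95 and 5.67, 2.92-fold lower (2.47 to 3.45). Both were also lower in induced than in uninduced.

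**Figure D4:**
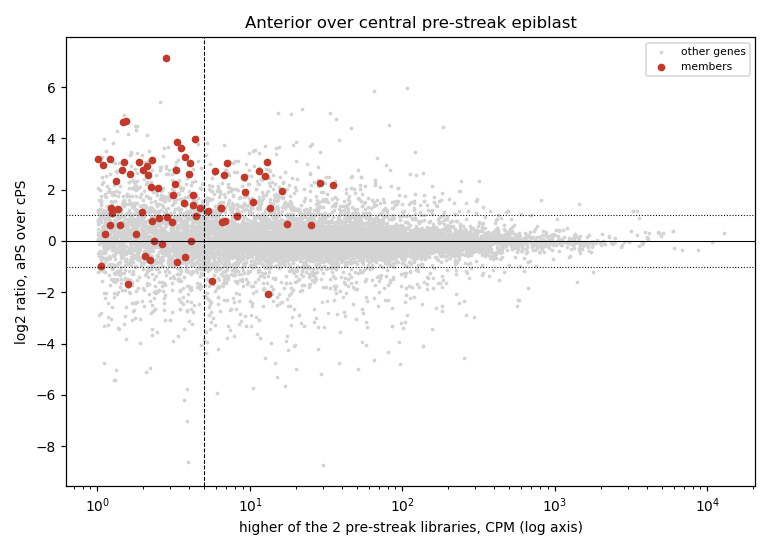
Log2 ratio of aPS over cPS (y) against the higher of the 2 pre-streak levels in CPM (x, log axis) for members (red) and all other genes (grey) with 1 CPM or more in either; the solid line marks equal levels, the dotted lines a ratio of 2 and the dashed line 5 CPM. Right of the dashed line 16 members lie above the upper dotted line and 2, ENPP6 and GNAO1, below the lower one.

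The plot of pre-streak ratios shows that most members lie above the line of equal levels. Markers of other tissues differed as well, in both directions. Notochord, prechordal plate and node markers summed to 555 CPM in aPS and 131 in cPS, of which OTX2 made up 112 and 18.2. Paraxial mesoderm markers summed to 181 and 64.1 CPM, of which TBX6 made up 174 and 59.2. Preplacodal markers, OTX2 among them, summed to 259 and 150 CPM. Lower in aPS were the sums of surface ectoderm markers (2638 CPM in aPS and 3373 in cPS) and neural crest markers (145 and 339). So were those of lateral mesoderm (45.6 and 122), endoderm (69.6 and 94.8) and blood markers (17.4 and 26.2). The part of these tissues in the members' ratios was not tested.

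The anterior and the posterior preplacodal library, both of the other laboratory, differed for a part of the members. Of the 49 with 5 CPM or more in either, 2 were higher in aPPR, 8 lower and 39 neither. Over all genes tested 0.791% were higher and 0.7% lower in aPPR. FEZF2 had 13.4 CPM in aPPR and 2.05 in pPPR, a ratio of 6.53 (5.74 to 7.46), and the gene with the number ENSGALG00000026916 had 7.17 CPM in aPPR and 1.05 in pPPR, a ratio of 6.86 (5.72 to 8.26). ZEB2 had 2.61 CPM in aPPR and 15.3 in pPPR, 5.85-fold lower in aPPR (5.13 to 6.69), FST 14.1 and 48.9, 3.47-fold lower, and ZIC2 22.6 and 54.3, 2.41-fold lower (2.29 to 2.53). CDH6, PCDH8, PAPPA, BRINP2 and LSAMP were also lower in aPPR, by 2.18 to 2.88 times. SOX2 had 15.5 CPM in aPPR and 14.9 in pPPR, with a ratio of 1.04 (0.972 to 1.11), a difference within counting error. Below 5 CPM RAX had 0.904 CPM in aPPR and 0.123 in pPPR, and NKX-6.2 0.426 and 1.98. The eye field and forebrain members thus leaned to the anterior library and ZEB2, ZIC2 and CDH6 to the posterior one.

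**Figure D5:**
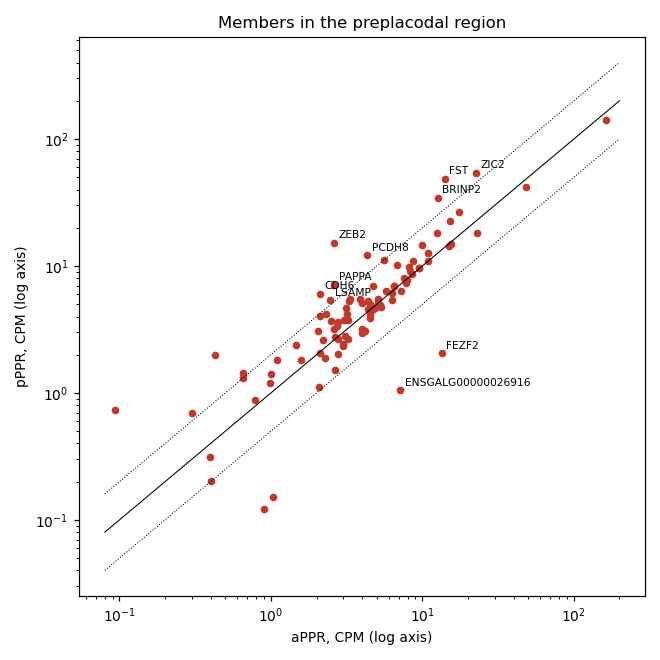
CPM of the 95 members in aPPR (x, log axis) and pPPR (y, log axis); the solid line marks equal levels, the dotted lines a ratio of 2, and genes past that ratio with 5 CPM or more in either are named. FEZF2 and ENSGALG00000026916 lie on the aPPR side, and 8 genes led by ZEB2 lie on the pPPR side.

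The plot of preplacodal levels shows most members between the dotted lines. In the gene order of the reference annotation (GRCg7b) ARHGAP15 and ZEB2 lie 2 genes apart, and SLC6A2 and LPCAT2 are neighbours, and no other pair of members placed there lay within 3 genes. ZEB2 had a ratio of 5.58 of induced over uninduced and ARHGAP15, a GTPase-activating protein, of 4.47 (2.11 to 10.5), at 36 and 9 counts, whereas in the preplacodal libraries ARHGAP15 had 2.09 CPM in aPPR and 1.11 in pPPR, the opposite order to ZEB2.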

How the data were processed

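Messenger RNA of 8 chick embryo tissues was sequenced, 1 library per group. The count table deposited by the authors holds raw counts per gene for 17329 genes, and the FPKM table deposited by the authors holds length-scaled values for 17327. Per the submitters' processing notes, TopHat2 and the chicken build galGal4 were used; how reads were counted per gene, with which gene models, strand option or filters, was not given in the sources used here. Without a known strand setting, reads of overlapping genes on opposite strands cannot be told apart. TopHat2 aligns reads to the genome, and its treatment of reads with several matches can split or drop those of near-identical genes. Whether this applies to RAX and RAX1 was not tested.

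Counts were scaled by column totals to CPM, with 0 counts set to 3. A call needs a ratio of 2 and 5 CPM in the higher library. Intervals are exact Clopper-Pearson (95%), conditional on the summed counts. FPKM was used for the 92 members with Ensembl numbers only; among Ensembl genes 8 of 8 FPKM columns followed their own library's counts best (r across genes 0.895 to 0.968), and RefSeq rows were not used. Near-copies were gene pairs whose counts kept a constant ratio within 15% over at least 5 libraries with 20 counts or more. Scaling by TMM (edgeR 4.0.16) and DESeq2 1.42.0 size factors in R 4.3.3 served as alternatives; neither tool's test was used. Other work used Python 3.11.15, pandas 2.3.3, numpy 2.4.6, scipy 1.17.1 and matplotlib 3.10.9, and the interval and rule code was tested on simulated data. The gene order came from a RefSeq table of assembly GRCg7b, used for neighbours only.

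The members and the 16 gene lists (284 of 326 genes found) were chosen with earlier results of these data known, and roles were given after the members were known. Named genes are members in a list, the 15 highest in NP, the 10 with the highest interval bound over the next HH6/7 library, up to 10 called each way in the area opaca and pre-streak comparisons, and 3 each side of every limit; further genes were named after their values were seen. Promoter motifs and sequences were not analysed here.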

Additional observations from a re-analysis of the deposited data

How the results depend on the processing

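With 1 library per group, no leave-one-out value and no spread between embryos can be given; depth limits the area opaca libraries most, where 5 CPM is 65.3 counts. No paired analysis was possible because each group holds 1 library. Under TMM factors 94 genes met the rule and under DESeq2 size factors 96, 91 of them members in each case; these scalings moved the median of all genes by -0.14 and -0.17 (log2) in NP over aPS, and by -0.17 and -0.19 in NP over cPS, and no count of calls by 1.5 times. With the lower interval bound at 2, 76 genes met the rule, all members, and in FPKM 97 Ensembl genes did, 55 of them members. The number of member genes was 178 with a minimum of 1 CPM in NP, 46 at a ratio of 3, 24 at a ratio of 4 and 46 with a limit of 1 CPM in induced. For induced over uninduced, 25 members were higher with a 1 CPM minimum and 2 with FPKM + 0.1 or FPKM + 1, and 5 were lower with a 1 CPM minimum, 2 at a ratio of 1.5, and 0 at 10 CPM and in both FPKM settings. For aPS over cPS, 50 were higher at 1 CPM, 8 at 10 CPM, 9 at a ratio of 4 and 9 in both FPKM settings, and 1 was lower at 10 CPM and at a ratio of 4. NP over aPS was higher for 59 members at 10 CPM, 54 with FPKM + 0.1 and 52 with FPKM + 1, and NP over cPS for 59 and 57 in FPKM. For aPPR over pPPR, 1 was higher at 10 CPM, and 5 were lower at 10 CPM, 1 at a ratio of 4 and 3 in both FPKM settings. The counts at 1 or 10 CPM and at other ratios differ because more or fewer genes pass the limit. Calls in FPKM needed 5 FPKM in the higher library in place of 5 CPM. They also had 0.1 or 1 added to both values and left out RefSeq rows. The members' median in NP was 7.99 FPKM and 15.1 CPM, so the 2 limits are unlike. How much each of these changed the FPKM counts was not tested. In FPKM the ratio of induced over uninduced changed sign for 6 named members that lay under a ratio of 2 in the counts. They were BEGAIN, CPLX3, DDC, LAMP5, NACAD and NKX-6.2. BEGAIN, DDC and NKX-6.2 each had 2 counts in induced and 0 in uninduced, and CPLX3 had 0 and 3. Their sign in the counts came from setting 0 to 3 counts, and their raw counts went the same way as FPKM. For NACAD (55 and 65 counts) and LAMP5 (5 and 6) the raw counts and FPKM differed in sign. The log2 ratio of CPLX2 was -1.01 with FPKM + 0.1, against -0.02 in the counts. Of the named members past a ratio of 2 in the counts of induced over uninduced, 18 have an FPKM value, and 3 of these were under 2 with FPKM + 0.1 and 13 with FPKM + 1; for aPS over cPS it was 3 and 11 of 29. CACNG4 had a log2 ratio of 0.0 in both FPKM settings, against 2.86 in the counts, for induced over uninduced, and 0.19 and 0.02, against 3.05, for aPS over cPS. The planned search of promoters for motifs was not run.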
